A study of Mus musculus with 13 samples.

Results

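The C/EBP family genes Cebpa, Cebpb, Cebpd, Cebpe and Cebpg were examined for candidate C/EBPα regions in LSK cells, with the question whether C/EBPα was found near its own gene and those of its relatives. A region was counted for a gene when its centre lay within 100 kb of the annotated transcription start site (TSS), and 13 of the 17899 candidate regions met this rule. Cebpa and Cebpg are neighbours whose TSSs are 62.8 kb apart, so that 3 regions fell into the windows of both and are counted once.

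The list came from ChIP-seq, in which an antibody, here Santa Cruz 14-AA against C/EBPα, captures its protein from crosslinked chromatin. The DNA fragments crosslinked to that protein are recovered and sequenced. The cells were LSK cells (Lin- Sca-1+ Kit+), a bone marrow fraction sorted by flow cytometry that holds hematopoietic stem cells and multipotent progenitors. Of the 13 samples in the series, 1 library with a region list was analysed here, and the other 12, among them the IgG mock, the GMP libraries and another C/EBPα library from LSK cells, were not analysed here. Its strain label reads C57BL/6 cebpa flox/flox;Mx1Cre. The labels give no age, no treatment and no separate genotype, so whether the floxed Cebpa alleles were intact is not stated there. In the study, floxed mice with and without Mx1Cre were injected with pIpC, which deleted Cebpa in those with Mx1Cre. The study's methods name mice of both kinds for ChIP-seq. Mx1Cre is a recombinase transgene driven by an interferon-responsive promoter and acts in other cells than blood cells as well. Each region has a score, which is the p-value given by the peak caller MACS for the excess over the IgG mock, written as minus 10 times its log10, and the list begins at a score of 50. The list gives no read numbers, and the mapped reads that the study shows per library were not used here, so no precision from depth is given. With 1 library no value has a replicate check.

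C/EBP proteins are basic leucine zipper factors that bind DNA as dimers of family members with each other, and their zippers allow nearly any pairing within the family. C/EBPα starts the granulocyte and monocyte program, C/EBPβ and C/EBPδ rise in inflammation and stress, C/EBPε acts late in granulocytes, and C/EBPγ lacks a strong activation domain. The mouse Cebpa promoter has long been known to hold a C/EBP site through which C/EBPα can act on its own gene, and enhancers downstream of Cebpa and of Cebpe are known from myeloid cells.

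Of the 13 regions, the one with the highest score lay 71.2 kb downstream of the Cebpb TSS. It scored 577.42 and was number 79 of all candidates, where the next of the 13 scored 121.07 and was number 1702. Its neighbour, 65.2 kb downstream of the same TSS, scored 105.12, and these were the 2 regions with a C/EBP word within 70 bp of the centre. The word was spelled TTGCNNAA or TTACNNAA and was sought on either strand, and 10.6% of all candidates had it at this distance. The middle of both regions is shown because it holds these words, which are in capitals. The sequences are from NCBIM37, which is mm9, plus strand, chr2:167585440-167585739 for the first and chr2:167579464-167579763 for the second.
Cebpb, 71.2 kb downstream: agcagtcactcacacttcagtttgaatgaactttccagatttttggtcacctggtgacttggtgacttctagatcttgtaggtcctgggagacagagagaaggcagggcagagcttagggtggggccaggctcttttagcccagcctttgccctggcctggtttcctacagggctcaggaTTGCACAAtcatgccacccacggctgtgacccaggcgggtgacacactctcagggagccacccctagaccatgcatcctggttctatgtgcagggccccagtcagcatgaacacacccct
Cebpb, 65.2 kb downstream: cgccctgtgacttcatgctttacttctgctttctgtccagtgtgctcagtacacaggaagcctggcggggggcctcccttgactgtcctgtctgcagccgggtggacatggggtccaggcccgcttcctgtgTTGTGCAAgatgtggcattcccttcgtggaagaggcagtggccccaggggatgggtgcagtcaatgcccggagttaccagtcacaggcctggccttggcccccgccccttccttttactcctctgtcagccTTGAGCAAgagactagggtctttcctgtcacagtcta
In the first, TTGCACAA began 30 bp to the right of the centre. In the second, TTGTGCAA began 18 bp to the left of the centre and TTGAGCAA 113 bp to the right. TTGTGCAA is TTGCACAA read on the other strand, so that the same word stood near both centres. This word was taken from these 2 regions, so its share in the list is a description and no support for them. Among all 17899 candidates, 246 had this word within 70 bp of the centre (1.37%). The share was 2.02% for scores from 100 to 200, where the second region lies, and 16.5% for scores of 500 or more.

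The promoter of Cebpa is shown because no region lay there. The sequence is RefSeq's, build GRCm38.p6, plus strand, chr7:35119043-35119342, from 250 bases before to 50 after the TSS, and it was found without a difference in NCBIM37 at chr7:35904062-35904361. Capitals mark the only 8-letter word with at least 7 letters of the C/EBP palindrome TTGCGCAA.
Cebpa promoter: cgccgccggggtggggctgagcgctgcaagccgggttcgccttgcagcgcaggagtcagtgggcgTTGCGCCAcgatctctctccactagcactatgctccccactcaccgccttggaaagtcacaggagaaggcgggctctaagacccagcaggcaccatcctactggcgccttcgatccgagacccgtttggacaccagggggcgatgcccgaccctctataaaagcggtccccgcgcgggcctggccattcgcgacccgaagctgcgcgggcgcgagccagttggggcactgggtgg
This word, TTGCGCCA, began 185 bp before the TSS. It is not a C/EBP word by the rule above, which 18.5% of the 32851 RefSeq promoters of this length met. A word with 7 letters of the palindrome was held by 5.92% of the promoters. The rule takes only the spellings TTGCNNAA and TTACNNAA, and the position of the known C/EBP site was not used here. A promoter without a word by this rule can therefore still hold that site. Promoters of Cebpb and Cebpg were also in the RefSeq table, and neither held a C/EBP word or a word with 7 letters of the palindrome. The Cebpb promoter held 3 SP1 words (CCCGCCC, either strand), and 25.6% of all promoters held at least 1. No promoter sequence was used here for Cebpd and Cebpe. A match describes these letters only.

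All 5 family genes had a candidate region within 100 kb, as did 79.2% of the 22368 genes examined. The number of regions was 5 at Cebpg, 4 at Cebpa, 3 at Cebpb and 2 at both Cebpd and Cebpe, where the median over all genes was 2 and the middle range of the genes went from 1 to 3. A region at this distance was thus common among genes in general. The counts near the TSS are given beside the shares of all genes, from which so few genes cannot be told apart. None of the 5 genes had a region centre within 5 kb of the TSS, against 8.81% of all genes, and 1, Cebpa, had one within 10 kb, against 16.6%. No region overlapped the stretch from 250 bp before to 50 bp after any of the 5 TSSs, a stretch that was overlapped in 455 of all genes (2.03%). A score of 200 or more was found within 100 kb of 1 family gene, Cebpb, and of 5.38% of all genes. The map of the windows shows these distances.

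**Figure D1:**
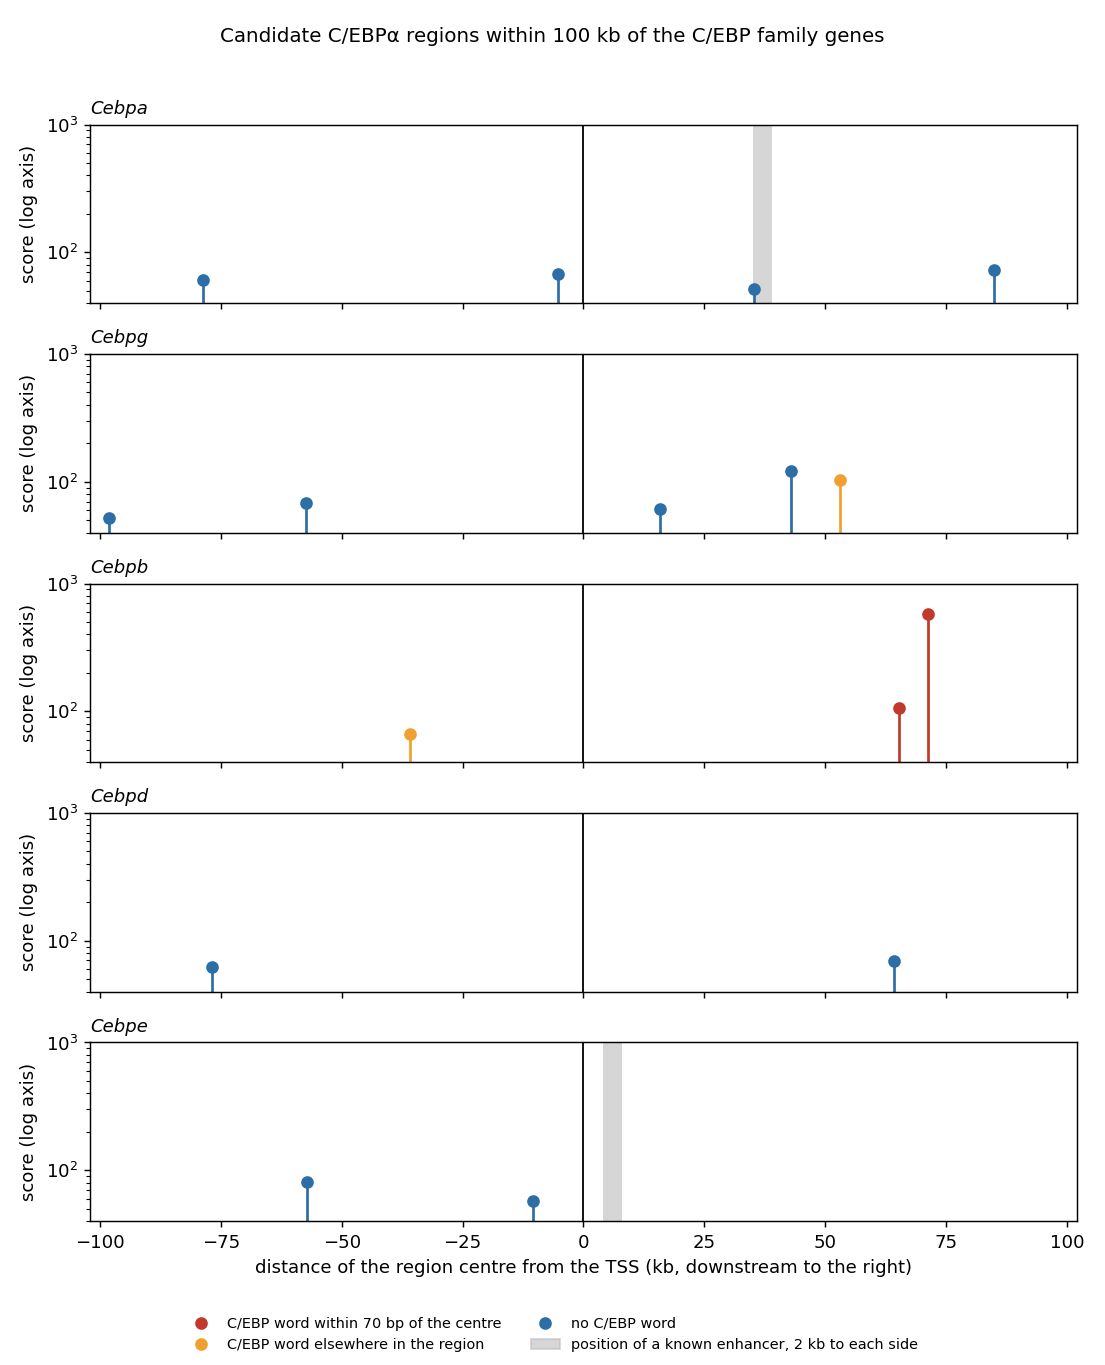
Score (log axis) of each candidate region against the distance of its centre from the TSS in kb, 1 panel per gene, with 1 stem per region and grey bands for the positions of known enhancers. The highest stem, with a score of 577.42, stands 71.2 kb downstream of Cebpb, and the stem nearest to a TSS is 5.3 kb upstream of Cebpa.

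Cebpa, the gene of the factor that was immunoprecipitated (ENSMUSG00000034957.9, chromosome 7 from 35904312 to 35906945, plus strand), had 4 regions with scores from 52.01 to 72.15. All 4 were below the median of 73.75 over the whole list, and 56.6% of all genes had a score within 100 kb as high as its highest. The region nearest to its TSS spanned 35898638 to 35899323, a width of 686 bp, and was centred 5332 bp upstream, in intergenic sequence with Cebpa as the nearest gene. It scored 67.78, a MACS p-value of 1.67e-07, and was number 10674 in the list. Of all genes, 9.33% had a region as near to their TSS. This region held none of the words sought, where 37.9% of the 4041 candidates within 10% of its width held a C/EBP word. Its middle, within 70 bp of the centre, is shown as the sequence nearest to the Cebpa TSS, from NCBIM37, plus strand, chr7:35898911-35899051, with no capitals because no word was found.
Cebpa, 5.3 kb upstream: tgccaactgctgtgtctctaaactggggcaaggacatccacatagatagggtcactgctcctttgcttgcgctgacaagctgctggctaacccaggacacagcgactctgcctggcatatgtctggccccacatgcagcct

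The known myeloid enhancer of Cebpa, placed here by its distance of 37 kb downstream of the TSS, fell between regions. The nearest region spanned 35939079 to 35940052, centred 35.3 kb downstream of the TSS, and its edge was 1260 bp short of that position, which is within the margin of 2 kb set for the placement. With 52.01 it had the lowest score of the 13 regions, a p-value of 6.30e-06 close to the threshold of the list, and was number 17136 of 17899. It was also the widest, with 974 bp. The TSS of Slc7a10, an amino acid transporter gene, was nearer to its centre than that of Cebpa, at 31839 against 35253 bp. No C/EBP word was found in it, where 61.9% of the 599 candidates of like width held at least 1. It held 1 word each for ETS, RUNX, GATA and SP1 factors and 1 E-box. Within 2 kb of the enhancer position itself there were 3 C/EBP words, which is the median over all genes at that distance from their TSS, and 66.7% of the genes had as many or more. A stretch of 300 bases is shown for these other words, from NCBIM37, plus strand, chr7:35939440-35939739, with the E-box CACGTG, an ETS word (AGGAAG or CGGAAG followed by C or T) and a GATA word (GATAA after A or T) in capitals, either strand.
Cebpa, 35.3 kb downstream: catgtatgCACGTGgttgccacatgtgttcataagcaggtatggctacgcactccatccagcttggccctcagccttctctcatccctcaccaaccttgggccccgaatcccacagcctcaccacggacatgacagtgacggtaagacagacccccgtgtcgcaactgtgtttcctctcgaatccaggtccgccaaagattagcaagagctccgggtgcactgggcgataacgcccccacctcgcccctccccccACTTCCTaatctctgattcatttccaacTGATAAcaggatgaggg
In whole regions of the list, ETS words were present in 33.9%, GATA words in 37.5%, RUNX words (TGTGGT or TGCGGT) in 44.3%, SP1 words in 5.94% and the E-box in 9.79%.

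The highest score in the Cebpa window, 72.15, belonged to a region of 488 bp from 35989089 to 35989576, centred 85.0 kb downstream. It lay in a coding exon of Lrp3, a receptor gene of the LDL receptor family, and in an intron of an annotated transcript of Slc7a10. The TSS of Lrp3 was 11027 bp away, so that Cebpa was not the nearest gene. The remaining region, from 35825264 to 35825912 with a score of 60.99, lay 78.7 kb upstream of Cebpa within Pepd, which encodes the dipeptidase prolidase. A RUNX word was the only word found in each of these regions.

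Cebpg (ENSMUSG00000056216.8, chromosome 7 from 35831441 to 35841522, minus strand), whose protein pairs with other C/EBP and ATF proteins, had 5 regions, and 5.83% of all genes had as many or more. The 60.99 region in Pepd was the nearest, 15.9 kb downstream of the Cebpg TSS. The highest score was 121.07, for a region of 490 bp from 35798347 to 35798836, centred 42.9 kb downstream in an intron of Pepd. It was number 1702 in the list, and 15.9% of all genes had as high a score within 100 kb. It held no C/EBP word but had GATA words, 1 of them starting 41 bp from the centre. Within 70 bp of the centre GATA words were present in 8.65% of all candidates.

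A further region in an intron of Pepd, from 35788236 to 35788874, was centred 53.0 kb downstream of Cebpg and scored 102.67. It held a C/EBP word far from its centre, starting 281 bp to the left. That word, in capitals, is shown for comparison with the Cebpb words, from NCBIM37, plus strand, chr7:35788263-35788292.
Cebpg, 53.0 kb downstream: gagagcagcttTTGCTGAAgtaacaacgaa
Of the 7466 candidates within 10% of its width, 36.1% held a C/EBP word anywhere. Both regions had Cebpg as the nearest TSS, and both were just outside the Cebpa window, with distances of 105.7 and 115.8 kb from the Cebpa TSS. The member closest to the border from the inside was the 52.01 region, 98.0 kb upstream of Cebpg. The first regions beyond the border were 113.7 kb from Cebpd with a score of 61.17, 137.0 kb from Cebpg with 93.87, 144.7 kb from Cebpb with 121.34 and 181.6 kb from Cebpe with 64.5.

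Cebpb, which encodes a factor of emergency granulopoiesis and of macrophages (ENSMUSG00000056501.3, chromosome 2 from 167514415 to 167515918, plus strand), was the family gene with the highest score. The region from 167585234 to 167585945, 712 bp wide, had a MACS p-value of 1.81e-58 and was among the top 0.441% of the list. Only 348 of the 22368 genes (1.56%) had as high a score within 100 kb. It was intergenic and no other annotated transcript covered its centre. The TSS on its right side was that of Ptpn1, a tyrosine phosphatase gene, at 172.2 kb. On its left side, the TSS of 1 of 2 annotated genes named Tmem189, on the minus strand and 907 bp inside Cebpb from its TSS, was slightly nearer, at 70.3 kb, than the Cebpb TSS. An ETS word was the only other word in the region, 314 bp left of the centre. Of the 97 candidates with a score of 500 or more, 52.6% had the C/EBP word within 70 bp of the centre.

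The neighbouring region, from 167579198 to 167580029, was 832 bp wide and number 3005 in the list. It held 3 C/EBP words, the last of them TTTAGCAA 209 bp right of the centre, where 48.0% of the 1482 candidates of like width held at least 1. ETS words started 28 and 96 bp left of its centre, and SP1 and RUNX words lay to the right. The centres of both regions were 5976 bp apart. Of all candidates 10.7% had another centre as near, as did 10 of the 97 with a score of 500 or more (10.3%). The part of 32-mers found elsewhere in the genome was 6.5% in the region of score 577.42 and 19.1% in its neighbour.

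Upstream of Cebpb there was 1 region, the nearest to its TSS, from 167478202 to 167478970 in an intron of Tmem189 and 35.8 kb away. It scored 66.92. The TSS of the other gene annotated as Tmem189 was 8410 bp away. Its C/EBP word, TTGTGTAA, started 169 bp left of the centre and belongs to the form TTACNNAA on the other strand. It is shown in capitals because it was the only word of that form in the 13 regions, from NCBIM37, plus strand, chr2:167478406-167478435.
Cebpb, 35.8 kb upstream: tcaattgagggTTGTGTAAacactgctatc

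**Figure D2:**
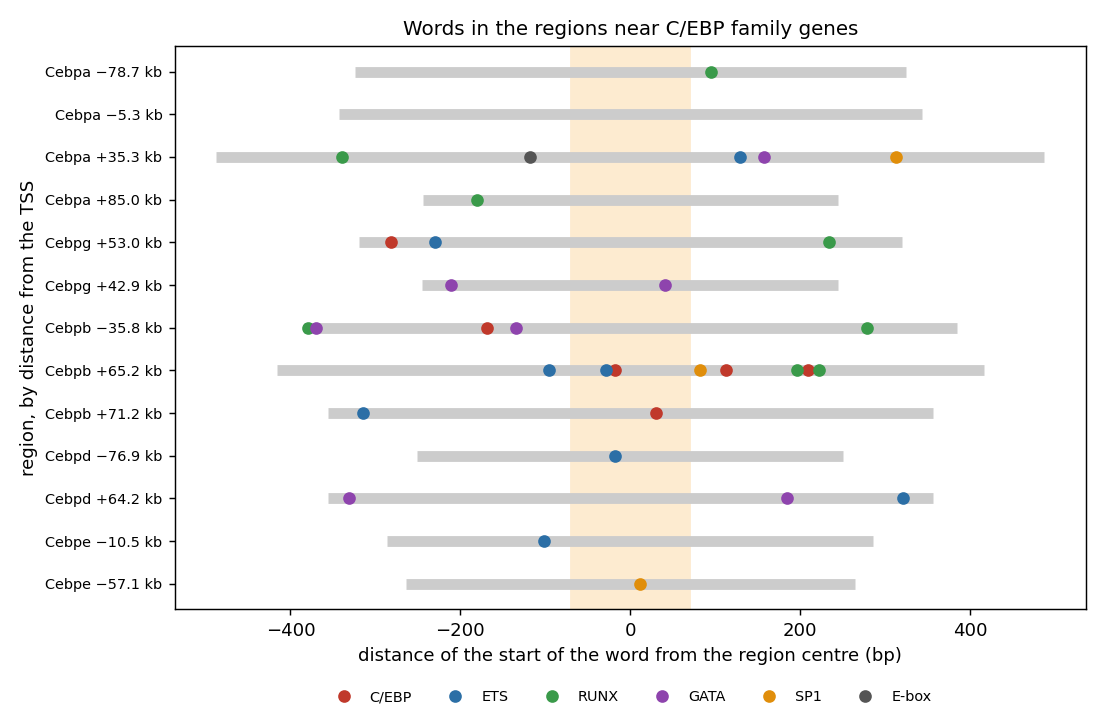
Position of the start of each word in bp from the region centre for the 13 regions, with grey bars for the width of each region and a shaded band for 70 bp to both sides of the centre. Red points, the C/EBP words, fall into the band in the regions 65.2 and 71.2 kb downstream of Cebpb, and 9 of the 13 regions have no red point.

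Cebpd, an early gene of the acute phase response (ENSMUSG00000071637.4, chromosome 16 from 15887379 to 15888559, plus strand), is typed as a pseudogene in the annotation used and was added by its name. It had 2 regions, and both were far from the TSS. The nearer and higher one, from 15951243 to 15951954, was centred 64.2 kb downstream in an intron of 2310008H04Rik and scored 69.30, with Cebpd as its nearest TSS. It held GATA and ETS words and no C/EBP word, and 59.5% of all genes had as high a score within 100 kb. The other region, from 15810221 to 15810721, scored 61.77 and lay 76.9 kb upstream in an intron of Prkdc, the gene of the catalytic subunit of DNA-dependent protein kinase. An ETS word started 18 bp from its centre, and 10.1% of all candidates had an ETS word within 70 bp of the centre. The share of 32-mers found at other positions of the genome was 20.4% in the nearer and 25.1% in the other region, the highest of the 13, and 9 regions had none.

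Cebpe, which is needed for the secondary granules of neutrophils (ENSMUSG00000052435.6, chromosome 14 from 55329200 to 55331011, minus strand), had 2 regions, both upstream. The nearest spanned 55341256 to 55341827, 10530 bp upstream of the TSS, in an untranslated exon part of Slc7a8, an amino acid transporter gene, with Cebpe as the nearest TSS. It scored 56.85 and was number 14662 in the list. Of all genes, 17.4% had a region as near. The highest score, 80.34, belonged to the region from 55387869 to 55388397, centred 57.1 kb upstream in an intron of Slc7a8 and 12590 bp from the TSS of that gene. An SP1 word started 12 bp from its centre, where 1.58% of all candidates had one within 70 bp, and neither region had a C/EBP word. No region lay at the known enhancer 6 kb downstream of Cebpe, and the nearest edge of a region was 16245 bp from that position. Within 2 kb of it there were 3 C/EBP words, as many as or fewer than at the same distance from the TSS in 66.5% of all genes.

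Across the 13 regions, the median score was 69.30, against 73.75 over the whole list. Of them 8 (61.5%) scored below 80, as did 59.3% of all candidates. A score of at least 100 was reached by 4 of the 13, a larger share than the 20.3% of all candidates. The median width was 649 bp against 587 bp. Apart from the region at Cebpb, the ranks of the family regions went from 1702 to 17136, with a median over the 13 of 10193.

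**Figure D3:**
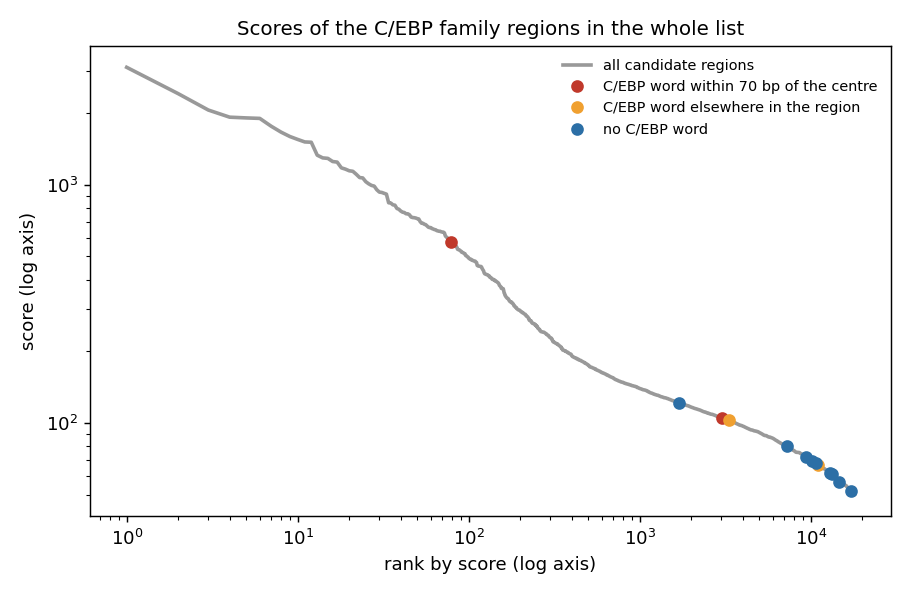
Score of all 17899 candidate regions against their rank, both on log axes, with the 13 family regions as points. The region downstream of Cebpb is at rank 79, and the family region next to it is at rank 1702.

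The C/EBP word was present near the centre in 2 of the 13 regions (15.4%), both at Cebpb, against 10.6% of all candidates. Anywhere in the region it was found in 4 of 13 (30.8%), against 36.3%. The share with the word near the centre depended on the score in the whole list. It was 8.96% for scores from 50 to 60, 8.94% from 60 to 80, 10% from 80 to 100, 12.4% from 100 to 200, 44.3% from 200 to 500 and 52.6% above. Of the family regions, 9 lay in the 3 lower bands and none of them had the word near its centre. The palindrome TTGCGCAA, the C/EBP-ATF composite word TGATGNAA and the CRE words TGACGTCA and TGACGTNA were found in no family region, and in 1.02%, 8.68%, 0.676% and 1.92% of all candidates. In whole regions, SP1 words were present in 3 of the 13 (23.1%, against 5.94% of all candidates) and ETS words in 7 (53.8% against 33.9%). RUNX words were present in 6 (46.2% against 44.3%) and GATA words in 4 (30.8% against 37.5%). These shares were not matched for width or GC content, and both had higher medians in the 13 regions than in the list. Whether this bears on the shares was not tested. Within 70 bp of the centre, RUNX words were found in 0 of the 13 (against 14% of all candidates) and ETS words in 2 (15.4% against 10.1%). GATA and SP1 words were found there in 1 region each (7.69%), against 8.65% and 1.58%.

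**Figure D4:**
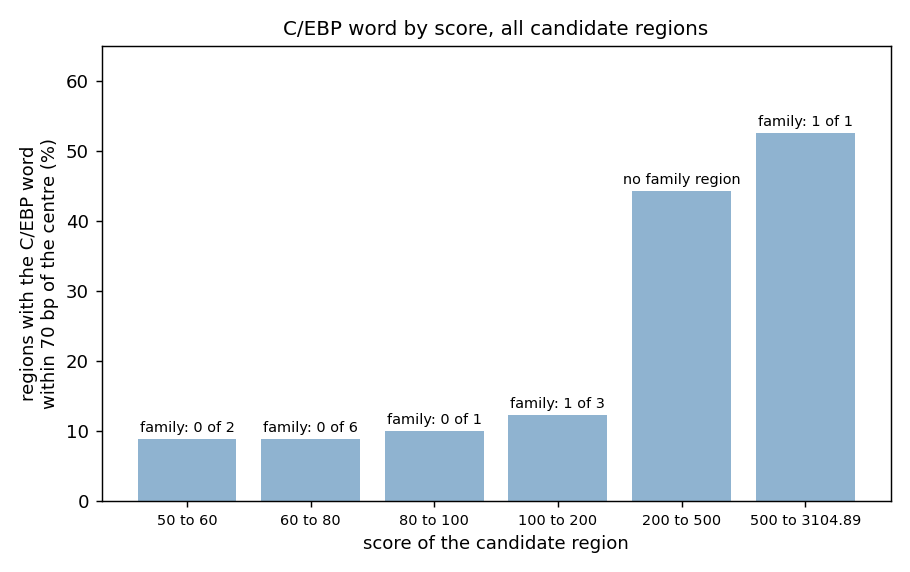
Share of all candidate regions with the C/EBP word within 70 bp of the centre, in percent, by score, with the count of family regions with the word above each bar. The share rises from 8.96% in the lowest band to 52.6% in the highest, where the family has 1 region, with the word.

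Regions with a score of 200 or more were farther from the other family genes than the median over all genes, which was 2307 kb. The nearest lay 4086 kb from Cebpd, 6246 kb from Cebpg, 6309 kb from Cebpa and 6848 kb from Cebpe. For Cebpa and Cebpg this was the same region, so their distances are not separate observations. Such a region was as far or farther away for 32.1% of all genes in the case of Cebpd, 17.2% for Cebpg, 16.8% for Cebpa and 14.3% for Cebpe, and 96% for Cebpb.

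Related genes were counted in the same way. The first list held 19 genes of other basic leucine zipper proteins that pair with C/EBP proteins or resemble them, such as the ATF, JUN, FOS and MAF proteins. Of these 17 had a region within 100 kb (89.5%, against 79.2% of all genes). Their median highest score was 96.65, where the median over all genes with a region was 87.43. The highest scores were 240.66 at Ddit3, which encodes the stress-induced C/EBP relative CHOP, 181.84 at Nfil3, a repressor, and 175.17 at Dbp, a circadian activator. The Ddit3 region was centred 332 bp upstream of the TSS and had a C/EBP word near its centre. That of Nfil3 lay 516 bp upstream and that of Dbp 81.2 kb upstream, both without the word. Junb and Hlf had no region within 100 kb, and their nearest centres were 152396 and 145206 bp away.

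The second list held factors linked to Cebpa or its protein in either direction, and 16 of its 17 symbols were matched. The symbol Gfi1 was not found among the genes examined and has no values here. All 16 had a region within 100 kb, as did 79.2% of all genes, and their median highest score was 103.12. Of the 16 genes, 5 (31.2%) had a score of 200 or more. This was so for 1 of the 19 genes of the first list (5.26%), 1 of the 5 family genes (20%) and 5.38% of all genes. The highest score was 637.44 at Sfpi1, the gene of PU.1, for a region 16.0 kb downstream of the TSS with a C/EBP word near its centre. Tal1, a stem cell factor gene, followed with 585.58 for a region 514 bp downstream, and Fli1, an ETS factor gene, with 393.95 for a region 1904 bp downstream. These were without the C/EBP word near the centre. A region within 5 kb of the TSS was found for 6 genes of the second list (37.5%), 4 of the first (21.1%), none of the 5 family genes and 8.81% of all genes. Sfpi1 and Tal1 were the only listed genes with a higher score than Cebpb. Cebpa, Cebpd and Cebpe were below the median over all genes with a region, and Cebpg and Cebpb above it.

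**Figure D5:**
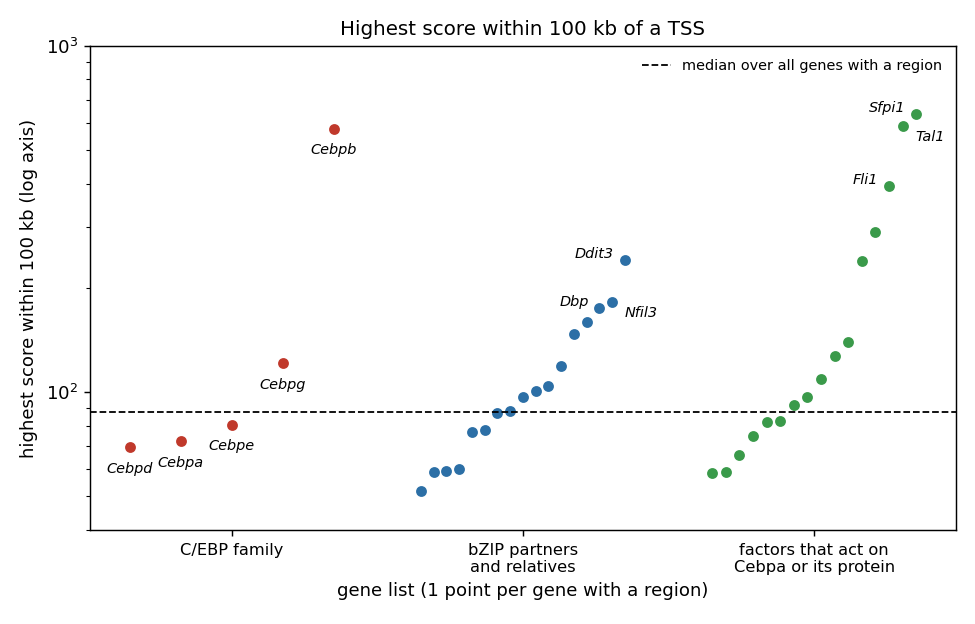
Highest score within 100 kb of the TSS (log axis) for each gene with a region, in the C/EBP family and in both lists of related genes, with a dashed line at 87.43, the median over all genes with a region. Cebpb is high in the family with 577.42, and the other 4 family genes are between 69.30 and 121.07.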

How the data were processed

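The authors mapped the reads to mm9 and called regions with MACS, with the IgG mock as control, and the submitters' processing notes name Bowtie 0.12.8, MACS 1.4.2 and bedtools 2.16.2, where the study's methods name another bowtie release. The deposited score is the p-value of the authors' MACS call written as minus 10 times its log10, and it was used as given. The authors filtered these candidates further by peak height, by IgG level, by clustering, by eye and by whether a region was in both samples. The high-confidence bound regions that they report are only a small part of the candidates. Which candidates they kept was not used here, so a family region need not be among them. Whether both LSK libraries entered the call is not given in the sources used here. The list holds no read numbers, and the study's mapped reads per library were not used here.

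All 17899 regions ended within the 21 chromosomes of NCBIM37, which is mm9. Genes were taken from GENCODE of that assembly, 22367 protein-coding genes and Cebpd, each with the TSS of its transcript of longest span. Both strands were searched for words, in whole regions and up to 70 bp from their centres, which stand in for summits, with all candidates as background. C/EBP words that read TTGCGCAA are counted under both names. Sequence found elsewhere was measured by the share of 32-mers at more than 1 position. Members and lists were chosen with earlier results of these data known, and no statistical test was made. In full were described the region of highest score and the nearest region of each gene, and from the lists the 3 genes of highest score and those without a region. The alternatives were other windows, transcript starts, scores, overlaps and words. The word search and the count of regions per window were checked on simulated sequences and positions with known answers. The tools were numpy 2.4.6, pysam 0.24.0, scipy 1.17.1 and matplotlib 3.10.9 under Python 3.11.15.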

Additional observations from a re-analysis of the deposited data

How the results depend on the processing

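The count of 13 regions changed most with the window and the score. With a window of 10 kb, 1 region and 1 family gene were left, and with 50 kb there were 6 regions. A score of at least 80 left 5 regions at 3 genes, a score of at least 100 left 4 regions at 2 genes, and a score of at least 200 left 1 region at 1 gene, with 1 region that held the C/EBP word. Fewer regions can enter under each of these by construction. The count of 2 regions with the C/EBP word became 4 when the whole region was searched and 0 with TTGCGCAA. The other counts were within 1.5 times the main count. The median score went from 63.95 to 72.15 over the alternatives, whose regions overlap with the 13 and, at 10 kb, number 1, so this range does not speak to its stability. The alternative with 7 of 8 letters of TTGCGCAA was chosen after seeing the data and gave 2 regions. No paired analysis was possible because only 1 library has a processed file used here. Without read numbers and a replicate, neither the precision of a score nor the absence of a region below the threshold could be assessed.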

Other observations

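The family regions had a median GC content of 54.6%, with a range from 44.5 to 62.7%, where the median of all candidates was 48.7%. By annotation of their centres against protein-coding genes, 4 of the 13 were intergenic (30.8%, against 52.1% of all candidates), 6 lay in introns only (46.2% against 40.7%) and 3 in an exon of at least 1 transcript (23.1% against 7.18%). For 6 of the 13 the nearest TSS was that of a family gene. Among the related genes, E2f1, chosen after its values were seen, was the third with a C/EBP word near the centre of its highest region, which scored 127.59 and lay 98.9 kb upstream.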
